A study of Takifugu obscurus with 9 samples.

Results

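Caspases and XAF1 were followed in the kidney of obscure puffer, Takifugu obscurus, aged 3 months. The fish had been given poly(I:C), an artificial double-stranded RNA that stands in for viral RNA. Members were the assembled features whose best protein match in a fish was described as a caspase, with the number after a hyphen, or as XIAP-associated factor 1 (XAF1). Caspase recruitment domain proteins were not taken. This gave 10 features, 7 for caspases and 3 for XAF1, of 46444 in the table, and they stand for 6 genes by name. A feature is a cluster of transcripts assembled from the reads and treated as 1 gene, and every member's best match was a protein of the related Takifugu rubripes. There were 3 libraries from 0 h, labelled as controls, 3 from 12 h and 3 from 48 h after poly(I:C). Whether controls received an injection, and whether each library is a separate fish, is not given in the labels, so a p-value here reflects the spread among these libraries alone, and that spread may be technical. No control was taken at 12 h or 48 h, so the challenge and the time since it cannot be told apart.

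Caspases are cysteine proteases held as inactive precursors. Initiator caspases are switched on in signalling complexes, caspase-8 at death receptors through the adaptor FADD and caspase-9 on the apoptosome. Cytochrome c triggers the apoptosome once released from mitochondria. The initiators set off the cleavage, direct or indirect, of the executioners caspase-3, caspase-6 and caspase-7, which take the cell apart. Caspase-1 instead matures inflammatory cytokines. XIAP binds and blocks caspases, and XAF1 was described in mammals as an interferon-induced antagonist of XIAP. The fish kidney is a filtering organ and also the main blood-forming tissue, so its RNA comes from tubule, blood and immune cells together.

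The 3 features for caspase-8 (casp8) were a caspase-8-like feature of 3205 nucleotides (TRINITY_DN20738_c0_g1), a caspase-8 feature of 2554 nucleotides (TRINITY_DN20859_c0_g1) and a second caspase-8-like feature of 1481 nucleotides (TRINITY_DN22812_c1_g3). The table's Swiss-Prot column named caspase-8 for all 3. Its KEGG column gave caspase 10 for the 3205-nucleotide feature and caspase 8 for the other 2, so which paralogue the longest one stands for is not settled by the table. The other caspases had 1 feature each: caspase-9 (TRINITY_DN21777_c0_g1, 2686 nucleotides), caspase-7 (TRINITY_DN19604_c0_g1, 6043 nucleotides), caspase-6 (TRINITY_DN20111_c0_g2, 2360 nucleotides) and a caspase-1-like feature (TRINITY_DN20355_c0_g1, 2093 nucleotides). All 7 carried the Peptidase_C14 domain of caspases in the table's Pfam column. The 3 features for XAF1 (xaf1), of 1429, 350 and 273 nucleotides, came from 1 assembly component (TRINITY_DN17793_c0_g2, TRINITY_DN17793_c0_g8 and TRINITY_DN17793_c0_g5), so they may be pieces of 1 gene. A further 2 features named as caspases fell outside the wording of the rule, a caspase 3-like feature of 2061 nucleotides and a caspase-2 match marked low quality of 2967 nucleotides. Their values are given as neighbours and are not counted among the 10.

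Values were taken to be TPM, abundance per transcript length scaled to a common total, so levels of different features can be set side by side. All 10 members reached 1 TPM in all 9 libraries and all were tested. Depth was estimated from the steps between low values at 22800000 to 29800000 reads a library. Fold changes are differences of log2(TPM + 1) from limma over 45473 features, which understates changes of low features, and a feature is called at an adjusted p under 0.05.

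The libraries were uneven within groups. The 0 h libraries 1 and 2 correlated at 0.985 across log2 values of 11329 features averaging 10 TPM or more, while 0 h library 3 correlated at 0.857 and 0.864 with them and at 0.919 to 0.927 with the 48 h libraries. The 12 h library 3 lay between 12 h libraries 1 and 2 in 70.6% of those features and in 10 of the 10 members. It correlated at 0.991 with the mean of its 2 fellows, against 0.864 to 0.962 for the other 8 libraries and the mean of theirs. Whether it holds the same material was not tested. Calls of members, of summed caspase-8 and of pathway genes in the fit of all 9 libraries are also given below without it. Calls of cell markers are given with all libraries only. Without 12 h library 3, 34 features were called at 12 h against 0 h and 29 at 48 h against 12 h, where 647 and 763 were called with it. The 0 h library 3 also stood apart from the mean of its fellows in the mean log2(TPM + 1) of cell markers, by 1.66 for T and NK cell genes, 1.41 for erythroid genes and -1.30 for proximal tubule genes. Markers of proximal tubule (7 of 8 found) and podocytes (4 of 4) were above 0 in every library, as the tissue label says.

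The test called 1 caspase feature and no XAF1 feature. At 12 h against 0 h, 1 of the 10 members was called, the 3205-nucleotide caspase-8-like feature, which was higher, where 1.42% of all features were called (0.592% higher, 0.831% lower). At 48 h against 0 h limma called 0 members, where 0.0110% of all features were called (0.00880% higher, 0.00220% lower). At 48 h against 12 h, 1 member was called, the same caspase-8-like feature, which was lower, where 1.68% of all features were called (1.07% higher, 0.611% lower). Those were 485 features higher and 278 lower, and after quantile normalization 264 higher and 358 lower. All members have a fish match. With the 20873 fish-matched features fitted alone, 919, 4 and 1559 were called in the 3 comparisons, with 1, 0 and 2 of the 10 members. An unadjusted p under 0.05 was reached by 3 of the 10 members at 12 h against 0 h, by 1 (caspase-9) at 48 h against 0 h and by 5 at 48 h against 12 h, where 15.9%, 11.1% and 21.5% of all features reached it. The 12 h and 48 h comparisons with 0 h share their control libraries. The median fold change of the 10 members was 0.33, -0.27 and -0.81 log2 units in the 3 comparisons, against -0.07, 0.13 and 0.21 over all features.

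**Figure D1:**
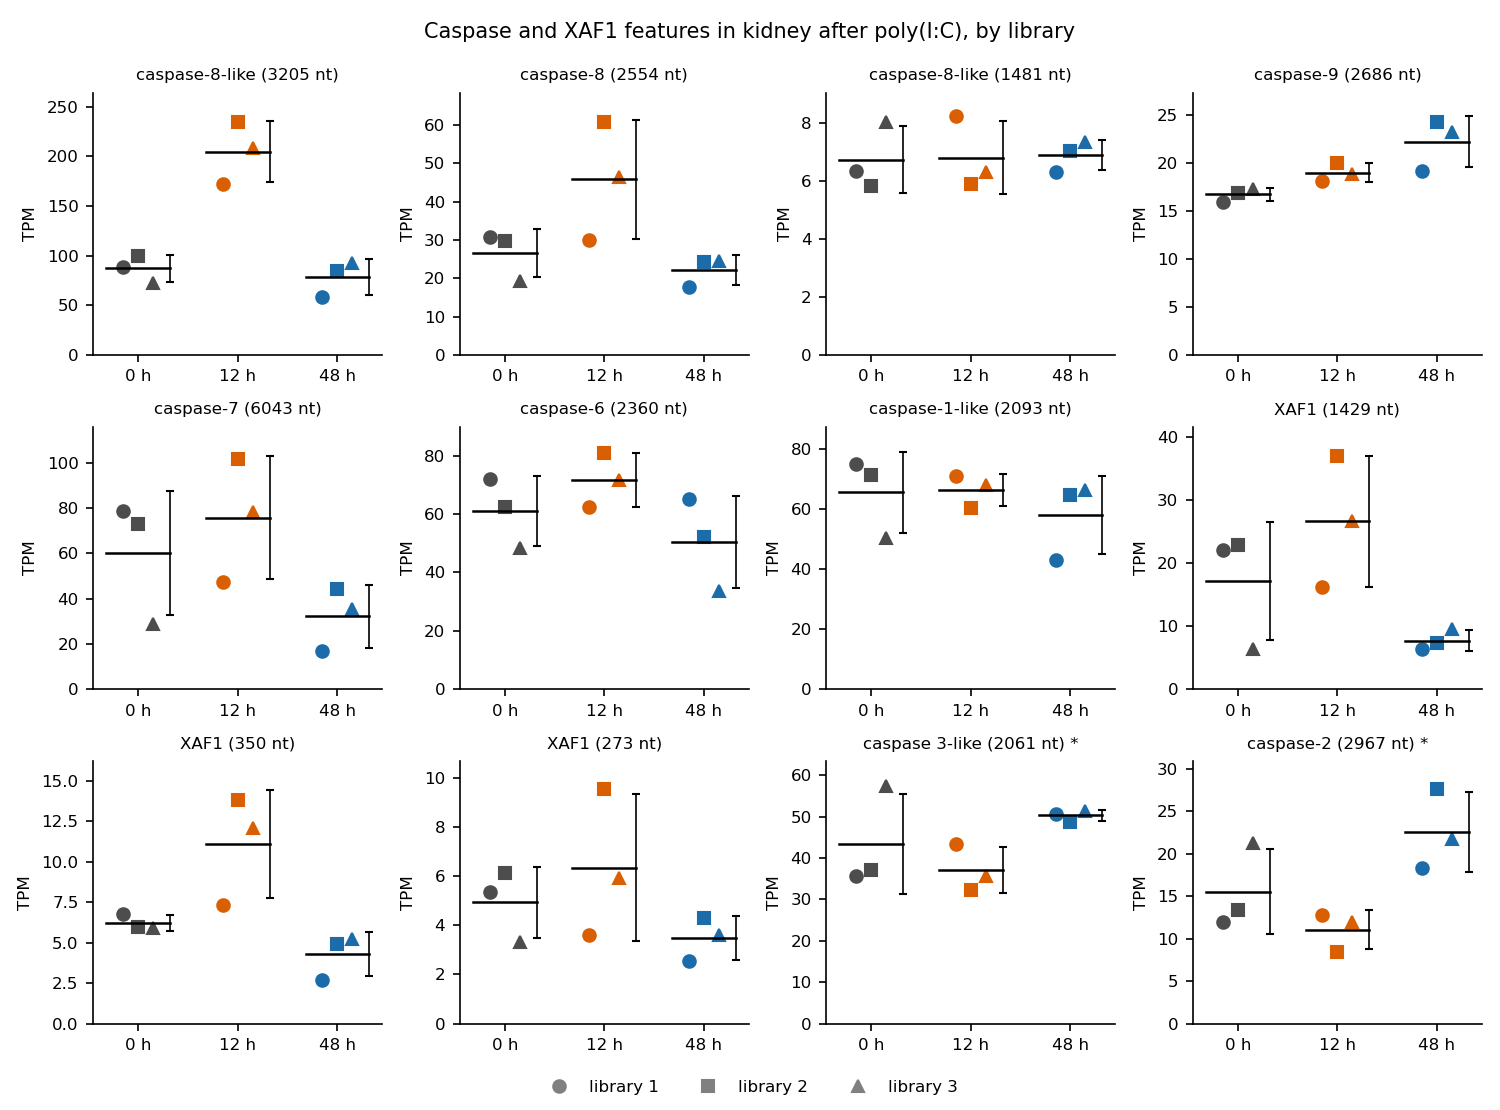
TPM of each caspase and XAF1 feature in every library at 0 h, 12 h and 48 h after poly(I:C); points are libraries (shape gives the library number), horizontal bars are means and whiskers are 1 SD over 3 libraries. The 3205-nucleotide caspase-8-like feature sits between 172.59 and 234.17 TPM at 12 h, above all libraries of 0 h and 48 h, while the asterisked caspase 3-like and caspase-2 features, which fall outside the rule, are highest on average at 48 h.

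The caspase-8-like feature of 3205 nucleotides was the most abundant caspase on average at each time, and it was higher at 12 h. It stood at 88.9, 99.68 and 72.52 TPM at 0 h, at 172.59, 234.17 and 207.99 TPM at 12 h, with 58.44, 84.19 and 92.61 TPM at 48 h. All 12 h libraries were above all libraries of 0 h and of 48 h, and the 0 h and 48 h libraries overlapped. It averaged 204.9 ± 30.9 TPM at 12 h and 87.0 ± 13.7 TPM at 0 h (SD, n = 3 each), a log2 fold change of 1.23 ± 0.21 (SE, adjusted p = 0.0296, limma). At 48 h it was 78.4 ± 17.8 TPM, a log2 fold change of -1.39 ± 0.21 against 12 h (adjusted p = 0.0186, limma). Against 0 h the difference at 48 h was -0.16 log2 units, with a 95% interval from -0.63 to 0.30 (adjusted p = 0.775, limma).

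These calls rested on few libraries. The 12 h rise in the caspase-8-like feature kept its size, 1.10 to 1.34 log2 units in all 19 alternative fits, but was called in 11 of them, and in 4 of 9 when single libraries were dropped. The limma adjusted p was 0.108 and 0.0873 without 0 h libraries 1 and 2, 0.0986 and 0.133 without 12 h libraries 2 and 3, and 0.0508 without 48 h library 2, and it was 0.0978 with 0 h libraries 1 and 2 averaged. With that pair averaged and 12 h library 3 left out it was 0.325. The fall at 48 h against 12 h was called in 15 of 19 fits, with limma adjusted p of 0.0704 and 0.0962 without 12 h libraries 2 and 3, 0.0690 without 48 h library 2 and 0.146 with both steps together.

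Cell markers moved with the same comparison. The summed level of 7 proximal tubule genes ranged from 90.59 to 148.44 TPM at 12 h and from 204.4 to 500.9 TPM at 0 h, and 3 of the 7 were called lower. That of 4 podocyte genes ranged from 24.89 to 37.22 TPM at 12 h and from 86.61 to 99.39 TPM at 0 h, with 1 called lower. The summed erythroid level (5 of 6 genes found) ranged from 9790.69 to 10489.82 TPM at 12 h and from 18593.53 to 65441.32 TPM at 0 h, with 1 called lower. Muscle genes (3 of 4 found) summed to 24.92 to 54.05 TPM at 12 h and 79.3 to 146.35 TPM at 0 h, with 0 of 3 called by limma, 1 at an unadjusted p under 0.05 and 1 with a positive fold change. Their part in the caspase values was not tested, and in whole kidney fewer cells of a type and less RNA per cell cannot be told apart. Macrophage genes (4 of 5 found) summed to 217.91 to 399.81 TPM at 12 h and 299.8 to 431.93 TPM at 0 h, and T and NK cell genes (6 of 6) to 251.44 to 287.98 TPM at 12 h and 130.39 to 436.6 TPM at 0 h. Neutrophil genes (4 of 5 found, 1 called lower) summed to 1087.8 to 2251.87 TPM at 12 h and 756.98 to 1573.78 TPM at 0 h, so these 3 blood-cell sums overlapped between the groups. Each marker gene was taken by its most abundant feature alone, though slc22a13 had 17 features, mrc1 11 and anpep 9. Each sum follows its most abundant genes. In 12 h library 2, ncf1 held 1762.35 of the 2251.87 TPM. The neutrophil gene called lower, cxcr2, averaged 5.90 TPM at 12 h and 29.1 TPM at 0 h. In 48 h library 2, mrc1 held 380.06 of the 588.96 TPM of macrophage genes. In 0 h library 3, hbae and hbbe held 35553.95 and 29625.15 of the 65441.32 TPM of erythroid genes. The 204.4, 65441.32 and 436.6 TPM ends of the 0 h ranges are all 0 h library 3, and without it the T and NK cell sums of 0 h, 130.39 and 131.71 TPM, lay below all 12 h libraries. B cell genes (4 of 4) summed to 123.46 to 206.7 TPM at 12 h and 138.07 to 188.58 TPM at 0 h, also with overlap. From 12 h, the podocyte and macrophage sums were higher at 48 h, at 54.24 to 126.05 TPM for podocyte genes and 514.19 to 588.96 TPM for macrophage genes, with 2 and 1 genes called higher. Not all markers of a list moved 1 way. Of 6 T and NK cell genes, 2 were called lower at 48 h against 12 h, as the caspase-8-like feature was, namely cd28 (log2 fold change -1.71, adjusted p = 0.0205, limma) and tcf7 (-1.19, adjusted p = 0.0133, limma). The other 4 had positive fold changes that were not called. The neutrophil gene cxcr2 was called higher (2.21, adjusted p = 0.00541, limma), and the macrophage gene mpeg1 had a fold change of -0.51 that was not called (adjusted p = 0.274, limma).

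The other caspase-8 features did not pass. The 2554-nucleotide caspase-8 feature stood at 30.74, 29.73 and 19.36 TPM at 0 h, at 30.01, 60.8 and 46.48 TPM at 12 h, with 17.61, 24.12 and 24.49 TPM at 48 h. The 12 h library 1 lay among the 0 h libraries, and all 12 h libraries were above those of 48 h. Its log2 fold change was 0.73 ± 0.27 at 12 h against 0 h (SE, adjusted p = 0.229, limma) and -0.98 ± 0.27 at 48 h against 12 h (adjusted p = 0.0927, limma). Without 12 h library 1 the difference between 48 h and 12 h was -1.25 (adjusted p = 0.0403, limma). That was the 1 call in 19 alternative fits, where the limma adjusted p reached 0.263. The 1481-nucleotide caspase-8-like feature was low and flat, at 5.8 to 8.23 TPM over the 9 libraries, and its 95% interval at 12 h against 0 h ran from -0.43 to 0.45 log2 units. Its sign turned in several fits, as given in the closing section.

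The 3 features share a name but came from different assembly components, so their sum, called summed caspase-8 here, may join paralogues. It stood at 125.98, 135.21 and 99.89 TPM at 0 h, at 210.83, 300.84 and 260.76 TPM at 12 h, with 82.36, 115.33 and 124.42 TPM at 48 h. The 12 h libraries were again above all others. The sum rose by 1.09 ± 0.20 log2 units at 12 h against 0 h (SE, adjusted p = 0.0385, limma) and fell by 1.26 ± 0.20 at 48 h against 12 h (adjusted p = 0.0236, limma). The longest feature held 72.3%, 79.6% and 73.0% of it at 0 h, 12 h and 48 h, so this is largely the same measurement. Dropping single libraries ended the 12 h call in 7 of 9 fits, with limma adjusted p of 0.127, 0.109 and 0.0618 without 0 h libraries 1, 2 and 3, 0.120 and 0.164 without 12 h libraries 2 and 3, and 0.0639 and 0.0533 without 48 h libraries 2 and 3. The call at 48 h against 12 h was lost with adjusted p of 0.0820 and 0.107 without 12 h libraries 2 and 3, and 0.0580, 0.0782 and 0.0510 without 48 h libraries 1, 2 and 3 (limma).

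The makeup of the 7 caspase features at 12 h stood apart from the other times in every library. The feature followed here is the one called higher at 12 h and is itself part of the sum, so its share largely restates that rise. The caspase 3-like and caspase-2 features outside the rule are not in the sum. The 7 caspase features summed to 367.72, 358.66 and 244.36 TPM at 0 h, to 409.85, 563.71 and 497.27 TPM at 12 h and to 226.54, 300.59 and 282.86 TPM at 48 h. Within that sum the 3205-nucleotide caspase-8-like feature held 41.8% ± 0.285 at 12 h, against 27.2% ± 2.80 at 0 h (SD, n = 3 each), and 28.8% ± 3.55 at 48 h. Its share was 42.1%, 41.5% and 41.8% in the 12 h libraries, above every 0 h library (24.2%, 27.8% and 29.7%) and every 48 h library (25.8%, 28.0% and 32.7%). The 12 h shares lay close together although the summed levels of these libraries differed, and 12 h library 3 is the one that lies between its fellows. The ratio of this feature to the 2554-nucleotide caspase-8 feature was 2.89, 3.35 and 3.75 at 0 h, 5.75, 3.85 and 4.47 at 12 h and 3.32, 3.49 and 3.78 at 48 h, so the 2 features did not keep 1 ratio.

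**Figure D2:**
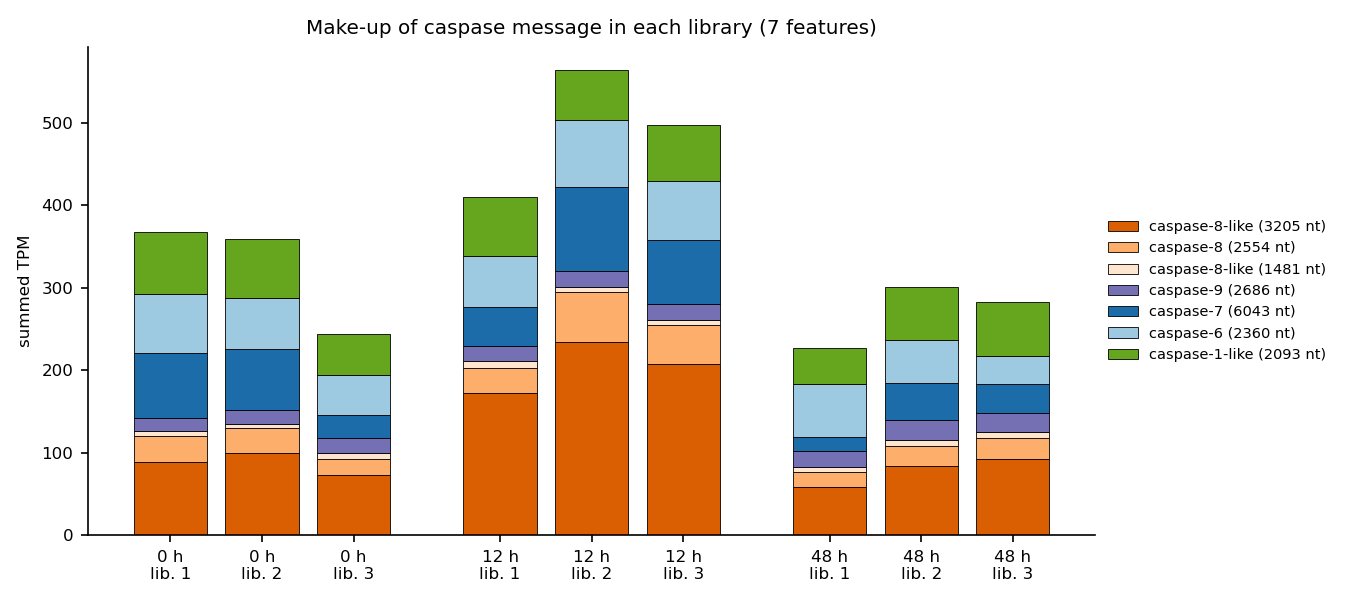
Summed TPM of the 7 caspase features in each library, stacked by feature, at 0 h, 12 h and 48 h (lib. is library). The 12 h bars reach 409.85 to 563.71 TPM, and their lowest segment, the 3205-nucleotide caspase-8-like feature, holds 41.5% to 42.1% of each, against at most 32.7% in any other library.

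Caspase-9, the apoptosome initiator, had a small spread, with its lowest mean at 0 h and its highest at 48 h. It stood at 15.94, 16.85 and 17.3 TPM at 0 h, at 18.06, 19.97 and 18.87 TPM at 12 h, with 19.15, 24.19 and 23.15 TPM at 48 h. Every 12 h and every 48 h library was above every 0 h library, and the 12 h and 48 h libraries overlapped. The log2 fold change was 0.17 ± 0.14 at 12 h against 0 h (SE, adjusted p = 0.619, limma) and 0.38 ± 0.14 at 48 h against 0 h (adjusted p = 0.421, limma), so neither was called. Separation of this kind was common, as 8.25% of all features had every 12 h library above every 0 h library and 12.3% every 48 h library above every 0 h library.

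Of the executioners, caspase-7 varied most between libraries. It stood at 78.61, 72.97 and 28.61 TPM at 0 h, at 47.6, 101.72 and 78.35 TPM at 12 h, with 16.8, 44.26 and 35.42 TPM at 48 h. The 0 h library 3 lay well under its fellows and among the 48 h libraries, and all 12 h libraries were above those of 48 h. The log2 fold change was 0.39 ± 0.46 at 12 h against 0 h (adjusted p = 0.738, limma), -0.86 ± 0.46 at 48 h against 0 h (adjusted p = 0.508, limma) and -1.25 ± 0.46 at 48 h against 12 h (SE, adjusted p = 0.160, limma). Without 0 h library 3 the values against 0 h were -0.0633 at 12 h (adjusted p = 0.960, limma) and -1.32 at 48 h (adjusted p = 0.140, limma). The 95% interval of all libraries at 12 h against 0 h ran from -0.63 to 1.42, which spans zero.

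Caspase-6 was steadier, at 72.15, 62.23 and 48.43 TPM at 0 h, at 62.49, 80.8 and 71.5 TPM at 12 h, with 65.11, 52.2 and 33.75 TPM at 48 h. All 3 groups overlapped, and no comparison was called (limma adjusted p of 0.695 for 12 h and 0.647 for 48 h against 0 h, and 0.235 for 48 h against 12 h). The caspase 3-like feature, outside the rule, stood at 35.74, 37.04 and 57.35 TPM at 0 h, at 43.33, 32.35 and 35.53 TPM at 12 h, with 50.69, 48.79 and 51.3 TPM at 48 h. Its 48 h libraries were all above those of 12 h, as in 20.5% of all features, the opposite order to caspase-7. The log2 fold change was 0.44 and was not called (adjusted p = 0.233, limma). In the caspase 3-like feature the 0 h library 3 was the highest of all 9.

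The caspase-1-like feature, for the inflammatory caspase, was flat. It stood at 75.04, 71.4 and 50.13 TPM at 0 h, at 70.87, 60.38 and 67.79 TPM at 12 h, with 43.12, 64.61 and 66.12 TPM at 48 h. All groups overlapped, and the log2 fold change was 0.04 at 12 h and -0.18 at 48 h against 0 h (adjusted p = 0.958 and 0.758, limma). The caspase-2 match outside the rule stood at 11.98, 13.38 and 21.25 TPM at 0 h, at 12.76, 8.44 and 11.91 TPM at 12 h, with 18.36, 27.65 and 21.79 TPM at 48 h. Its 48 h libraries were all above those of 12 h, again as in 20.5% of all features. The difference was 0.97 ± 0.25 log2 units (SE, adjusted p = 0.0770, limma), and the limma adjusted p was 0.0337 without 0 h library 3. This difference was called in 3 of 19 alternative fits, with limma adjusted p up to 0.220.

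XAF1 was present at every time and was lowest on average at 48 h, but no XAF1 feature was called. The 1429-nucleotide feature stood at 22.15, 22.98 and 6.42 TPM at 0 h, at 16.28, 37.01 and 26.73 TPM at 12 h, with 6.38, 7.27 and 9.54 TPM at 48 h. The 0 h libraries 1 and 2 lay within the 12 h range and 0 h library 3 within the 48 h range, while all 12 h libraries were above all of 48 h. The log2 fold change was 0.71 ± 0.45 at 12 h against 0 h (SE, adjusted p = 0.484, limma), and 0.16 without 0 h library 3. At 48 h it was -0.89 ± 0.45 against 0 h (adjusted p = 0.487, limma), which became -1.45 without 0 h library 3 (adjusted p = 0.0758, limma), and -1.61 ± 0.45 against 12 h (SE, adjusted p = 0.0904, limma). Without 0 h library 3, which enters that fit only through the shared spread, the difference between 48 h and 12 h was again -1.61 and was called (adjusted p = 0.0218, limma), as it was with only the groups compared (adjusted p = 0.0485, limma). Those were the 2 calls in 19 alternative fits, where the limma adjusted p reached 0.241.

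The 350-nucleotide XAF1 feature stood at 6.79, 5.96 and 5.92 TPM at 0 h, at 7.36, 13.82 and 12.08 TPM at 12 h, with 2.72, 4.92 and 5.2 TPM at 48 h. Its 3 groups did not overlap, and here 0 h library 3 lay beside its fellows. The log2 fold change was 0.70 ± 0.27 at 12 h against 0 h (SE, adjusted p = 0.245, limma) and -1.19 ± 0.27 at 48 h against 12 h (adjusted p = 0.0588, limma). This value of 48 h against 12 h was called in 5 of 19 alternative fits. The 273-nucleotide feature ranged from 2.53 to 9.54 TPM, with overlap between 12 h and each other group. These short features rest on about 9 to 45 and 5 to 19 reads a library, judged from the step between low values, and how much of their spread is counting error was not tested.

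Summed over its 3 features, XAF1 stood at 34.28, 35.08 and 15.68 TPM at 0 h, at 27.23, 60.37 and 44.73 TPM at 12 h, with 11.63, 16.5 and 18.36 TPM at 48 h. The 12 h libraries were all above those of 48 h, and the 0 h libraries spanned both. The log2 fold change was 0.63 ± 0.36 at 12 h against 0 h (SE, adjusted p = 0.434, limma), -0.77 ± 0.36 at 48 h against 0 h (adjusted p = 0.461, limma) and -1.40 ± 0.36 at 48 h against 12 h (adjusted p = 0.0747, limma). Without 0 h library 3 the values against 0 h were 0.27 at 12 h (adjusted p = 0.714, limma) and -1.14 at 48 h (adjusted p = 0.113, limma). The difference between 48 h and 12 h had an adjusted p of 0.0311 without 0 h library 3, 0.0439 without 12 h library 1 and 0.0496 among features with a fish match. Those were the 3 calls in 19 alternative fits, where the limma adjusted p reached 0.231.

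**Figure D3:**
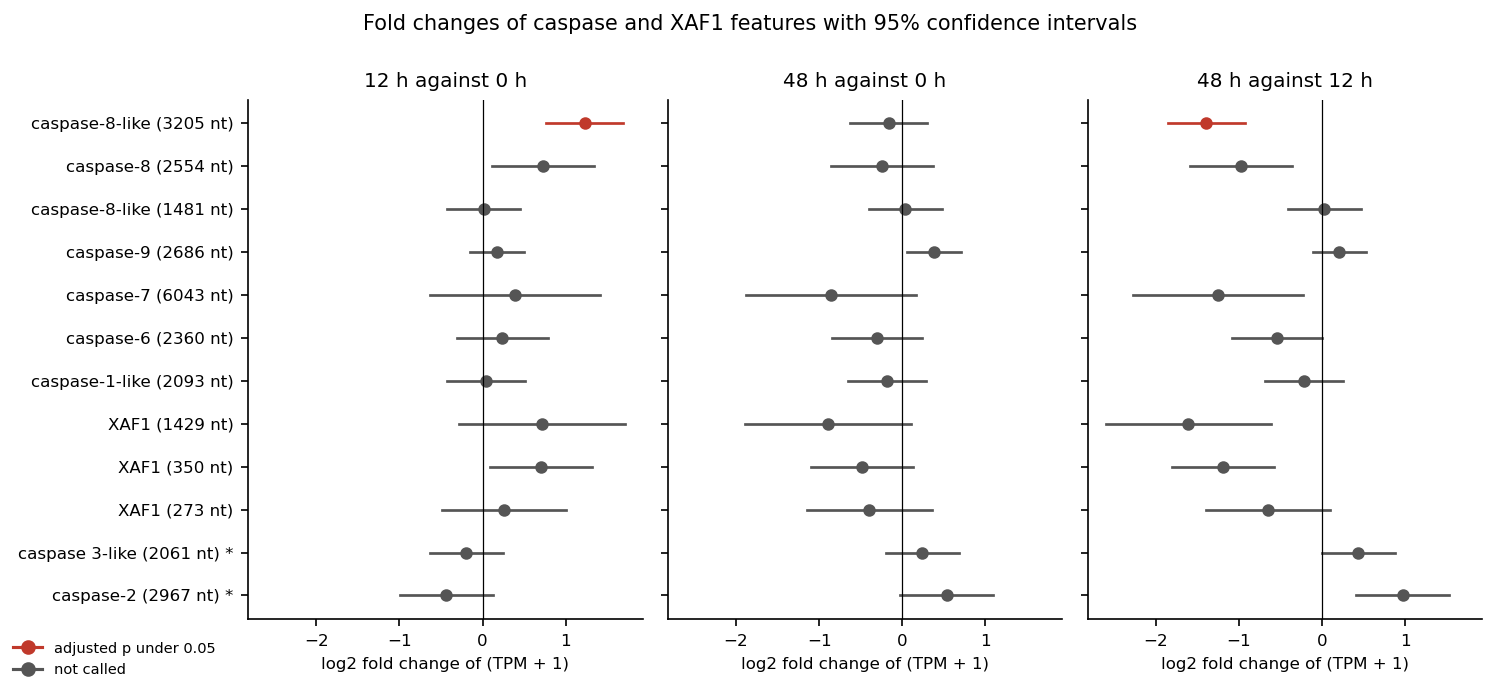
Log2 fold change of (TPM + 1) for each caspase and XAF1 feature in the 3 comparisons (limma estimate, with bars for 95% confidence intervals); red marks an adjusted p under 0.05 and asterisks the features outside the rule. Red appears on the 3205-nucleotide caspase-8-like feature alone, at 1.23 for 12 h against 0 h and -1.39 for 48 h against 12 h.

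Counted by whether libraries overlap, 3 members were higher at 12 h than at 0 h in every library (the 3205-nucleotide caspase-8-like feature, caspase-9 and the 350-nucleotide XAF1 feature) and 0 were lower, where 8.25% of all features were higher and 12.7% lower in this way. At 48 h against 0 h, caspase-9 was higher and the 350-nucleotide XAF1 feature lower, with backgrounds of 12.3% and 3.95%. At 48 h against 12 h, 5 members were lower in every library, namely the 2 longer caspase-8 features, caspase-7 and the 2 longer XAF1 features, and 0 were higher. The background there was 7.61% lower and 20.5% higher. These shares are over all tested features and were not counted among fish-matched features alone, to which all members belong. The XAF1 features may also be pieces of the same gene. The members and the comparison were chosen with earlier results known, so no test is set on these counts.

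The libraries in which the 1429-nucleotide XAF1 feature was high were those in which the mean level of antiviral genes was high. Of 9 interferon-stimulated genes, 7 were found (rsad2, mx1, irf1, irf7, ifi44l, dhx58 and ifih1), each taken by its most abundant feature, of 11 for ifi44l. Their mean log2(TPM + 1) was 8.86, 8.86 and 6.83 at 0 h, 8.57, 9.32 and 9.07 at 12 h and 5.91, 7.53 and 7.57 at 48 h. The 0 h library 3 differed from the mean of its fellows by -2.03 log2 units, so the controls were not alike in this level. Ranked from high to low, the 9 libraries came in the same order for the 1429-nucleotide XAF1 feature as for the interferon-stimulated level, with 9 of 9 ranks equal. Parts of that order rest on near ties of the level. It was 8.857 and 8.863 in 0 h libraries 1 and 2, and 7.532 and 7.575 in 48 h libraries 2 and 3. Not every gene of the list kept that order. Like this XAF1 feature, rsad2, mx1, irf1, dhx58 and ifih1 were highest in 12 h library 2. In contrast, ifi44l was highest in 12 h library 1 (961.46 TPM) and irf7 in 0 h libraries 1 and 2 (62.82 and 59.36 TPM). The 350- and 273-nucleotide XAF1 features had 4 and 5 ranks equal, no more than the 2554-nucleotide caspase-8 feature with 6 and the 3205-nucleotide one with 5, while caspase-9 and the 1481-nucleotide caspase-8-like feature had 0. None of the 7 interferon-stimulated genes was called by limma in any comparison, with 2, 3 and 6 of 7 at an unadjusted p under 0.05 in the order 12 h and 48 h, each against 0 h, and then 48 h against 12 h, where 15.9%, 11.1% and 21.5% of all features reached that.

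Caspase-7 and the long caspase-8-like feature part at the controls. In 0 h libraries 1 and 2, where the interferon-stimulated level was near that of 12 h, caspase-7 stood at 78.61 and 72.97 TPM, beside 78.35 TPM in 12 h library 3. The 3205-nucleotide caspase-8-like feature stood in these 0 h libraries at 88.9 and 99.68 TPM, below the 172.59 TPM of 12 h library 1, the lowest of 12 h. That library had the lower interferon-stimulated mean, but not the lower level of every gene in it. In mx1 and ifi44l every 12 h library was above every 0 h library. The mx1 level reached 1322.07 TPM at 0 h and at least 2066.47 TPM at 12 h, and ifi44l 377.58 and at least 422.95 TPM. In rsad2, irf1, irf7, dhx58 and ifih1 the 0 h and 12 h libraries overlapped. The 9 libraries also differ in cell markers, and whether the interferon-stimulated level sets any of these values was not tested.

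**Figure D4:**
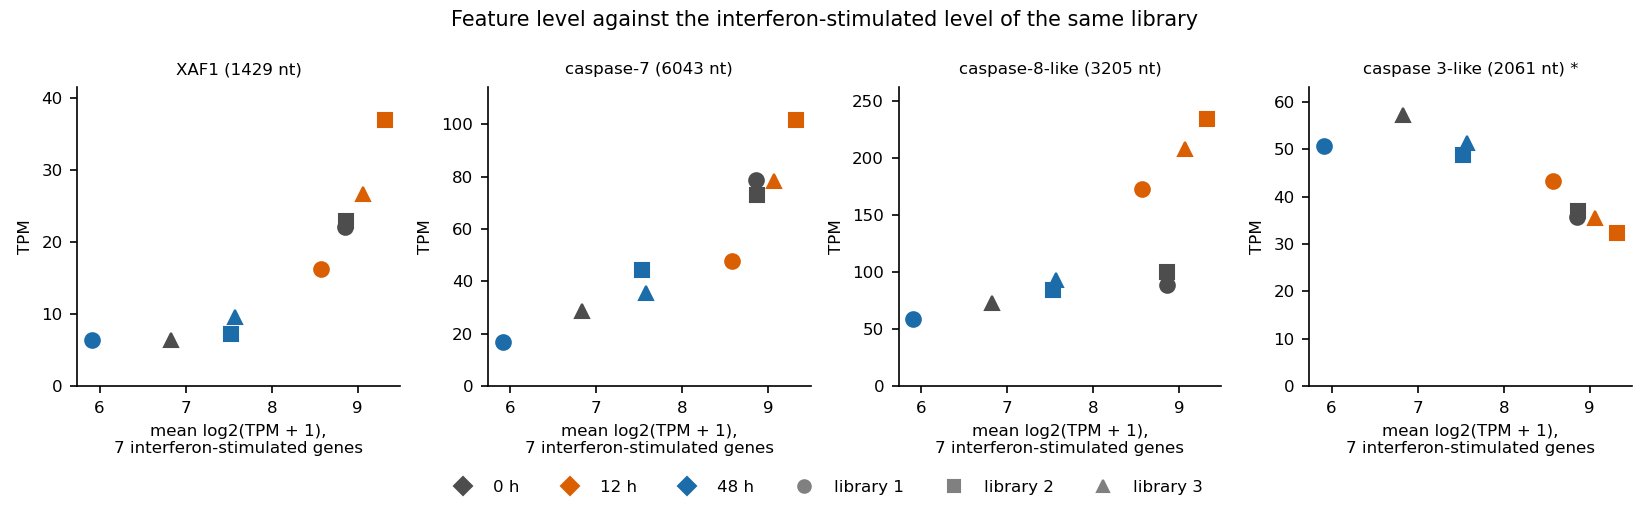
TPM of 4 features in each library (vertical) against the mean log2(TPM + 1) of 7 interferon-stimulated genes in the same library (horizontal); colour gives the time and shape the library number, and the asterisk marks a feature outside the rule. The XAF1 feature follows the interferon-stimulated order in all 9 libraries, the caspase-8-like feature is set apart at 12 h (172.59 to 234.17 TPM) from 0 h libraries 1 and 2 (88.9 and 99.68 TPM), and the caspase 3-like feature runs the other way.

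Over the 9 libraries, the named features most like the 1429-nucleotide XAF1 feature, of 8408 with a fish match that averaged 10 TPM or more, were growth-regulated alpha protein-like (Pearson r of log2 values 0.992), serine/threonine-protein phosphatase 6 regulatory subunit 2-like (0.991), interferon-inducible GTPase 5-like (0.991), the mitochondrial helicase SUPV3L1 (0.991) and hepatocyte growth factor-like protein (0.988). Those most like the 3205-nucleotide caspase-8-like feature were L-amino-acid oxidase (0.989), proteasome subunit beta type-6-B like protein (0.988), HIG1 domain family member 1A (0.983), interleukin-12 receptor subunit beta-2-like (0.982) and eukaryotic translation initiation factor 4E-like (0.981). The top of 8408 correlations over 9 libraries is high by selection. The 2 lists share no feature, but growth-regulated alpha protein-like and interleukin-12 receptor subunit beta-2-like came from 1 assembly component. The 1429-nucleotide XAF1 feature and the 3205-nucleotide caspase-8-like feature themselves correlated at 0.808, so the lists do not set their patterns apart.

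Around the caspases, 45 of 58 listed pathway genes were found, each taken by its most abundant feature. At 12 h against 0 h, 1 of the 45 was called (2.22%, against 1.42% of all features), at 48 h against 0 h limma called 0 of 45, and at 48 h against 12 h 2 were called (4.44%, against 1.68%). The 45 all have a fish match and were picked as most abundant, so all features are not a like background. With the 20873 fish-matched features fitted alone, 919 were called at 12 h against 0 h, with 1 of the 45. At 48 h against 12 h 1559 were called there, with 3 of the 45. An unadjusted p under 0.05 was reached by 7, 9 and 16 of the 45 in the 3 comparisons, against 15.9%, 11.1% and 21.5% of all features. The median fold change of the 45 was 0.16, -0.02 and -0.07 log2 units. The genes called in the fit of all features were cytochrome c, cycs, and fadd, the adaptor that recruits caspase-8. These are message levels, and release of cytochrome c from mitochondria was not measured.

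Cytochrome c (cycs) stood at 104.37, 91.99 and 89.35 TPM at 0 h, at 177.05, 197.3 and 177.68 TPM at 12 h, with 98.39, 88.73 and 94.02 TPM at 48 h. The 12 h libraries were well above the rest, and the 0 h and 48 h libraries overlapped. It rose by 0.94 log2 units at 12 h against 0 h (adjusted p = 0.0145, limma) and fell by 0.97 at 48 h against 12 h (adjusted p = 0.0130, limma). The 12 h call was lost without 0 h library 1 (limma adjusted p = 0.0573), 0 h library 2 (0.0773), 12 h library 2 (0.0578) and 12 h library 3 (0.0919), and the 48 h call without 12 h library 2 (0.0518), 12 h library 3 (0.0822) and 48 h library 2 (0.0645).

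The adaptor fadd stood at 39.05, 34.97 and 29.47 TPM at 0 h, at 45.64, 59.31 and 53.77 TPM at 12 h, with 21.97, 31.06 and 30.1 TPM at 48 h. All 12 h libraries were above those of 0 h and 48 h. Its log2 fold change was 0.60 at 12 h against 0 h (adjusted p = 0.148, limma) and -0.92 at 48 h against 12 h (adjusted p = 0.0425, limma), the second of which held in 2 of 9 fits with a single library dropped. It was lost at limma adjusted p of 0.0651 and 0.0737 without 0 h libraries 1 and 2, 0.136 and 0.154 without 12 h libraries 2 and 3, and 0.0907, 0.108 and 0.0906 without 48 h libraries 1, 2 and 3.

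By list, none of 7 death receptors and ligands was called in any comparison, with medians of 0.02, -0.02 and 0.32 log2 units. The death ligand tnfsf10 (TRAIL) stood at 221.47, 214.44 and 43.48 TPM at 0 h, at 158.43, 197.42 and 175.39 TPM at 12 h, with 31.59, 56.19 and 53.42 TPM at 48 h, with 0 h library 3 among the 48 h libraries as for XAF1. Of 8 adaptors and kinases, 7 had a positive fold change at 12 h against 0 h and 2 at 48 h against 12 h, with medians of 0.39 and -0.65, fadd being the one called. Over all features the medians were -0.07 and 0.21, and the share with a positive fold change was not counted. In 12 h library 1, fadd and cradd lay above all 0 h libraries, traf2 at 20.03 TPM lay below all of them, and the rest lay within the 0 h range. Of the same list, ripk3, the necroptosis kinase, averaged 42.1 ± 23.5 TPM at 12 h and 21.8 ± 8.01 TPM at 0 h, with 11.7 ± 4.99 TPM at 48 h (SD, n = 3 each). None of these differences in ripk3 was called.

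The caspase inhibitors (4 of 7 found) were not called. XIAP, the binding partner of XAF1, was level at 17.7 ± 1.60 TPM at 0 h, 17.4 ± 2.45 TPM at 12 h and 17.6 ± 2.09 TPM at 48 h (SD, n = 3 each), while cflar, a catalytically inactive relative of caspase-8 that restrains it, averaged 32.6, 46.3 and 19.8 TPM at those times with overlap between 12 h and 0 h. Of 8 found BCL2 family genes, 0 were called, with medians of 0.19, -0.02 and 0.05. Of 7 apoptosome and mitochondrial factors, cycs was called, and the medians were 0.35, 0.21 and -0.09. Of 8 caspase substrates and 3 inflammasome genes, 0 were called, with medians of -0.04, 0.18 and 0.25 for the substrates and -0.05, -0.23 and 0.51 for the inflammasome genes. The lists were chosen with earlier results of these data known, so their counts are descriptions.

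**Figure D5:**
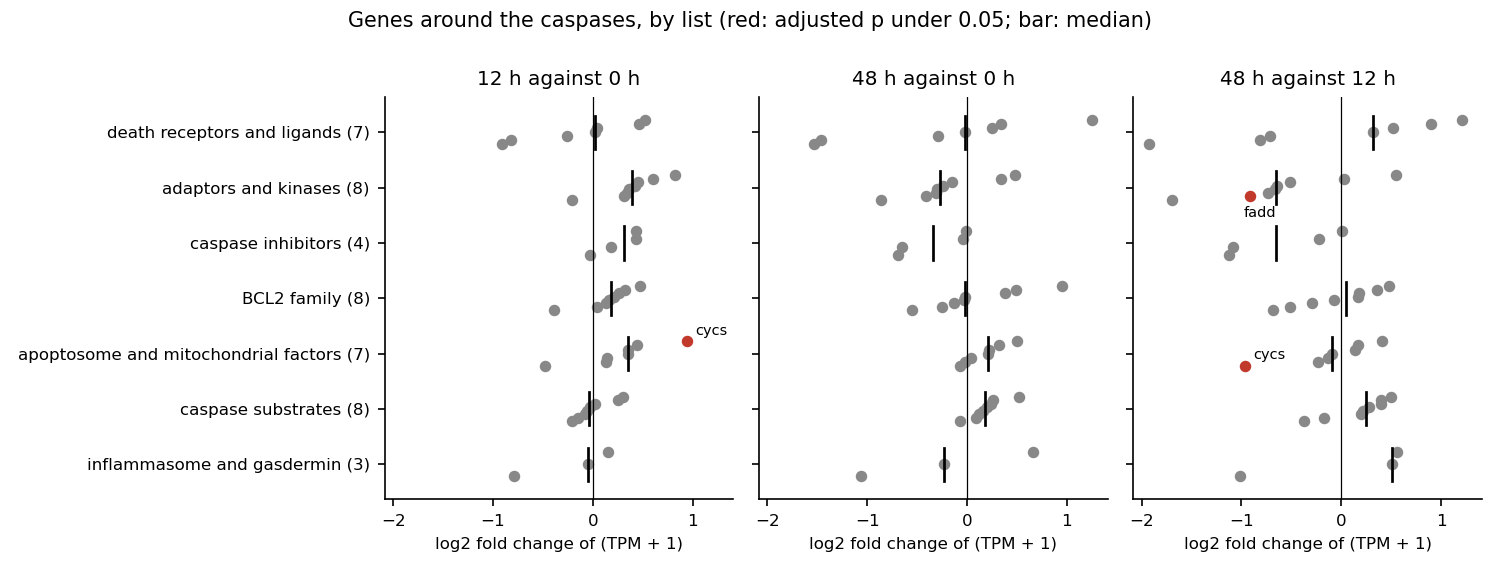
Log2 fold change of (TPM + 1) of each found pathway gene, 1 point a gene, by list (number found in brackets) in the 3 comparisons; vertical bars are list medians and red marks an adjusted p under 0.05. Red appears on cycs at 12 h against 0 h (0.94) and on cycs (-0.97) and fadd (-0.92) at 48 h against 12 h.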

How the data were processed

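Total RNA of whole kidney was extracted with Trizol and made into Illumina libraries, per the labels' protocols. The authors deposited a single table, with 46444 features in rows, their annotation and 9 columns of values; the assembly, alignment and quantification settings are not given in the sources used here. The header names no unit. The authors' deposited values are treated as TPM because columns total 993873 to 996068 and because low values sit on whole steps, smaller for longer features (90.5% to 96.1% within 0.1 of a whole step). The smallest maximum of a feature over libraries is 2.01, so low features were removed before deposit. The 45473 features that reached 1 TPM in 3 or more libraries were tested on log2(TPM + 1). The model was fitted in R 4.3.3 by limma 3.58.1, all 9 libraries entering with 1 mean per group, and variances were moderated with the trend and robust options of eBayes. The script was tested on simulated data. Each comparison was two-sided, with Benjamini-Hochberg adjustment over all features.

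Named members were those called, the most abundant feature of each gene and those with a mean of at least 10 TPM, others being given by range; the 350-nucleotide XAF1 feature and the uncalled pathway genes tnfsf10, ripk3, xiap and cflar were described after their values were seen. Members and lists were chosen with earlier results of these data known. Alternatives were quantile normalization, a pseudocount of 0.1, no filter, a filter of 5 TPM, limma without trend and robust options, only the groups compared, the replicate number as a block, leaving out each library, averaging 0 h libraries 1 and 2, and features with a fish match only. Leaving out 12 h library 3 on top of that averaging, and all alternatives for the pathway genes, were chosen after seeing the data. Protein and nucleotide sequences were not used here. A gene of the interferon-stimulated list is not reported here and does not enter that level.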

Additional observations from a re-analysis of the deposited data

Results flagged for a closer look

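The effect at 48 h differed from the effect at 12 h, each against the shared 0 h libraries, for 4 values, tested as 48 h against 12 h in limma. They were the 3205-nucleotide caspase-8-like feature, the caspase-8 sum that it largely makes up, and 2 pathway genes. The 48 h effect minus the 12 h effect was -1.39 log2 units for the 3205-nucleotide caspase-8-like feature (adjusted p = 0.0186, limma) and -1.26 for caspase-8 summed over its features (adjusted p = 0.0236, limma). It was -0.97 for cycs (adjusted p = 0.0130, limma) and -0.92 for fadd (adjusted p = 0.0425, limma). All 3 libraries of 48 h were below all 3 of 12 h in each of the 4, as in 7.61% of all features. The 4 were picked by that same comparison, so this separation adds no support to the calls. Without 12 h library 3 and with 0 h libraries 1 and 2 averaged, none of the 4 was called (limma adjusted p of 0.146, 0.157, 0.141 and 0.207). Samples far from their group could not be searched for by a set rule, since groups hold 3 libraries.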

How the results depend on the processing

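Counts of calls depended on the fit. For 12 h against 0 h, the 647 features called were 326 without limma's trend and robust options, 235 with only the groups compared, 284 with the replicate block, 60 with 0 h libraries 1 and 2 averaged, and 3 when 12 h library 3 was also dropped (both steps). Members and pathway genes called were 0 each without the trend, with the averaging and with both steps. For 48 h against 0 h, the 5 features were 3 with a pseudocount of 0.1, 0 without the trend, 3 with the replicate block and 0 with both steps. For 48 h against 12 h, the 763 features were 1364 with a 5 TPM filter, 458 without the trend, 285 with the replicate block, 438 with the averaging, 0 with both steps and 1559 with fish matches only. Members called there were 2 with quantile normalization, a 5 TPM filter, only the groups compared or fish matches only, and 0 with both steps. Pathway genes called were 0 without the trend, 1 with the replicate block, 1 with the averaging and 0 with both steps.

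Summed caspase-8 at 12 h against 0 h stayed at 1.09 log2 units but was not called without the trend (limma adjusted p = 0.0887), with only the groups compared (0.0714) or with the replicate block (0.0543), nor at 1.15 with the averaging (0.118) and 1.13 with both steps (0.363). At 48 h against 12 h it was not called at -1.26 without the trend (0.0574) and -1.24 with both steps (0.157). Summed XAF1 there was called at -1.40 among fish matches (0.0496). The cause of these changes was not tested.

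Leaving out 1 library gave 34 to 876, 0 to 78 and 29 to 2492 features called in the 3 comparisons, 0 to 1, 0 and 0 to 3 members, and 0 to 2, 0 to 2 and 0 to 5 pathway genes. Summed caspase-8 ran from 0.96 to 1.22 at 12 h and -0.30 to 0.0048 at 48 h against 0 h, and from -1.40 to -1.08 at 48 h against 12 h. Summed XAF1 ran from 0.27 to 0.94, -1.14 to -0.58 and -1.71 to -1.15 in the 3 comparisons. Signs of uncalled values turned: caspase-1-like -0.14 to 0.14 at 12 h and -0.36 to 0.018 at 48 h, caspase-7 -0.0633 to 0.69, the 273-nucleotide XAF1 feature -0.0447 to 0.55 and caspase 3-like -0.32 to 0.0159 at 12 h, and the 3205-nucleotide caspase-8-like feature -0.30 to 0.0326 and cycs -0.0649 to 0.046 at 48 h against 0 h. The 1481-nucleotide caspase-8-like feature ran from -0.11 to 0.13, -0.047 to 0.16 and -0.0594 to 0.15 in the 3 comparisons. In it the sign also turned at 12 h with the averaging (-0.0458) and both steps (-0.0033), at 48 h against 0 h with quantile normalization (-0.0631), the averaging (-0.0199) and both steps (-0.0199), and at 48 h against 12 h with quantile normalization (-0.16) and both steps (-0.0166).

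Same-numbered libraries deviated from their group means with correlations of -0.22 to 0.37, and no member call was lost under the replicate block. Deviations within groups of 3 libraries depend on one another, so these correlations cannot settle whether the numbers pair the samples. Quantile normalization moved the median of all features from -0.07, 0.13 and 0.21 to 0.01, 0.04 and 0.04, and that of the members from 0.33, -0.27 and -0.81 to 0.37, -0.38 and -0.97. The 350- and 273-nucleotide XAF1 features rest on few reads, and whether depth sets their spread was not tested.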
